A study of Saccharomyces cerevisiae with 8 samples.

Results

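The genes described are PDC1, PDC5 and PDC6, which encode the pyruvate decarboxylases of budding yeast, and PDC2, which encodes a transcription factor that activates PDC1 and PDC5. They were chosen by their systematic names, YLR044C, YLR134W, YGR087C and YDR081C, and are 4 of the 7126 rows of the deposited expression table. RNA of Saccharomyces cerevisiae was sequenced from 8 samples in 4 groups, with 2 libraries in each. The groups were strain S at 12 h, strain U at 12 h, strain S at 6 h and strain U at 6 h. Strain S (JHY9200) is BY4741 with GCR1 (∆4-742) and is labelled as making Gcr1(S). Strain U (JHY9100) is BY4741 with GCR1 (∆1-574) and is labelled as making Gcr1(U). Both strains thus carry an edited GCR1, whose product, a transcription factor, switches on genes of glycolysis, and BY4741 with an unedited GCR1 was not analysed here. From where the deletions are numbered, and whether more than 1 clone of each strain was used, is not stated in the labels. The cultures grew without further treatment in 10 mL of YPD medium with 2% glucose, and the labels call the 6 h samples exponential phase and the 12 h samples after diauxic shift.

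Pyruvate decarboxylase turns pyruvate into acetaldehyde and carbon dioxide, with thiamine diphosphate as its cofactor. It stands where fermentation leaves the path to the mitochondrion: alcohol dehydrogenase reduces the acetaldehyde to ethanol, while pyruvate dehydrogenase sends pyruvate into respiration. In budding yeast Pdc1 is the main enzyme during growth on glucose. Pdc5 is a close copy whose gene is known to be raised when PDC1 is lost or thiamine is scarce. Pdc6 is a minor copy known to be raised when sulfur is scarce. Pdc2 also acts, together with Thi2 and Thi3, on genes of thiamine synthesis. At the diauxic shift glucose runs out and cells turn from making ethanol to using it.

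The 3 enzyme genes are copies of each other, so their sequences are shown first, because the values of each gene rest on reads that can be told from those of the others. PDC1 lies at chrXII:232390-234081 on the minus strand, PDC5 at chrXII:410723-412414 on the plus strand and PDC6 at chrVII:651290-652981 on the minus strand of the R64 assembly. Each is a single coding exon of 1692 bases, 563 codons without the stop. PDC2 is unlike them in length, with a single exon of 2778 bases at chrIV:607304-610081 on the minus strand. No other annotated gene overlaps any of the 4. The stretch of 60 bases with the most differences runs from base 1034 to base 1093 of each coding sequence. Capitals mark the 32 positions that are not the same in all 3 genes, in the R64 sequence from RefSeq.
PDC1, chrXII:232989-233048, minus strand: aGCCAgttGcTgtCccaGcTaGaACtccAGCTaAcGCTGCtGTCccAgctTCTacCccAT
PDC5, chrXII:411756-411815, plus strand: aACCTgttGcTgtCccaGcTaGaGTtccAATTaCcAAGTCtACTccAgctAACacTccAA
PDC6, chrVII:651889-651948, minus strand: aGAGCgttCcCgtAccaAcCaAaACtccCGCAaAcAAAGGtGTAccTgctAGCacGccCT

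The stretch of 60 bases with the fewest differences, from base 322 to base 381, has 6 such positions. It is shown because reads that lie in it are the hardest to assign.
PDC1, chrXII:233701-233760, minus strand: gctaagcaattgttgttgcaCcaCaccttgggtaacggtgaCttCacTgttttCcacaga
PDC5, chrXII:411044-411103, plus strand: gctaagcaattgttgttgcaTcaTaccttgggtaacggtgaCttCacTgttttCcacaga
PDC6, chrVII:652601-652660, minus strand: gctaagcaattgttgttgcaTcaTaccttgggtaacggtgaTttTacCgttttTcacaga

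Over the whole coding sequence PDC5 and PDC1 were identical at 1476 of 1692 positions (87.2%), PDC6 and PDC1 at 1269 (75.0%) and PDC6 and PDC5 at 1244 (73.5%). The longest run shared by PDC5 and PDC1 was 65 bases, that of PDC6 and PDC1 was 29 bases and that of PDC6 and PDC5 was 41 bases. Of the 1593 windows of 100 bases in each gene, the length of a read, 0 were identical to any window of another enzyme gene, and 0 came within 2 mismatches. A read of this length inside one coding sequence therefore differs from both other genes at more than 2 positions. The labels do not state how fragments with several alignments were assigned.

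**Figure D1:**
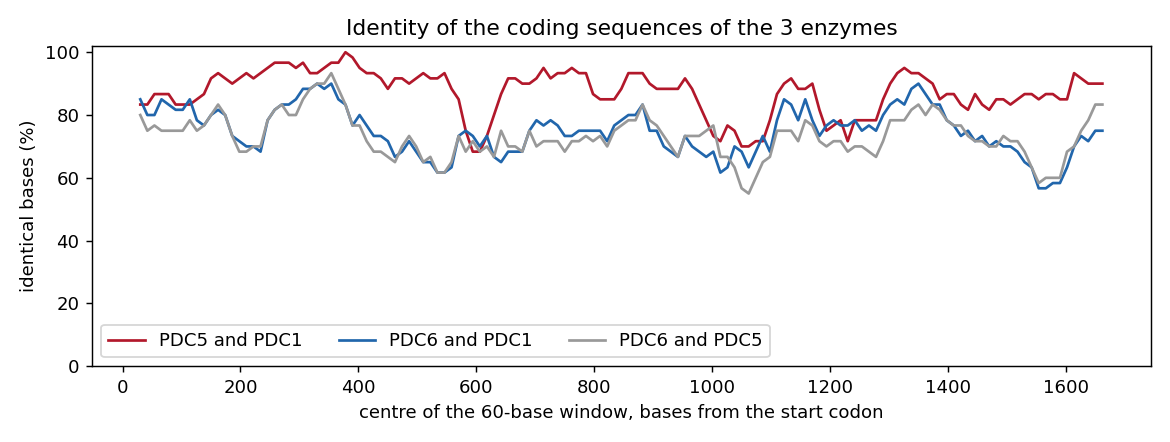
Percentage of identical bases in windows of 60 bases (y) along the coding sequences of the 3 enzymes (x, bases from the start codon), for each pair of genes. PDC5 and PDC1 run from 68.3% to 100% over the windows, PDC6 and PDC1 from 56.7% to 90.0%, and PDC6 and PDC5 from 55.0% to 93.3%.

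The sequence before PDC1 is shown because Gcr1 is known to bind the bases CTTCC, and the strains differ in the form of Gcr1. Both strands of the 1000 bases before each start codon were searched for CTTCC. PDC1 held 5 matches, PDC5 held 0, and PDC6 and PDC2 held 1 each. The farthest PDC1 match, at -977 to -973 from the start codon, lies past the near end of the neighbouring coding sequence, 955 bases away. The PDC2 match, at -858 to -854, also lies past the near end of its neighbour, 359 bases away. Of 6002 such upstream stretches, 88.8% held the letters, with a median of 2 matches, and 9.20% held at least 5. In PDC1, 4 of the matches lay within 49 bases, and the last pair shares 1 base. A count of 4 matches within 49 bases, a measure chosen after the matches were seen, was present in 7 of the 6002 stretches (0.117%). Capitals mark the matches in the window from 634 to 566 bases before the start codon, which lies between genes, since the nearest coding sequence on this side is 955 bases away.
PDC1, chrXII:234647-234715, minus strand: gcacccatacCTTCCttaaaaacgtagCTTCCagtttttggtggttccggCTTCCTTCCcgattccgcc

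Matches are a description of letters. Whether Gcr1 was bound in these cells was not measured here.

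Expression is given as FPKM, fragment counts scaled to gene length and library size, so levels can be compared between genes. The labelled phases matched their marker lists. All 10 diauxic shift markers, such as PCK1 and ICL1, were higher at 12 h and all 9 markers of growth on glucose were lower, in both strains. Of all genes tested, 33.2% were called higher and 22.9% lower at 12 h in S, and 33.5% and 21.7% in U. The lists were chosen with earlier results of these data known, so they are not an independent check of the phases. At 6 h replicates 1 and 2 stood apart in both strains: all 15 genes of the heat shock factor list were higher in replicate 1, by a median of 2.20 on the log2 scale in S and 2.22 in U. At 12 h 9 of the 10 diauxic shift markers were lower in replicate 1 than in replicate 2 in each strain, by medians of 1.48 in S and 1.05 in U. The matching counts over all genes were not made, and the choice of lists limits these replicate counts in the same way. GCR1 was listed at 104 and 89.0 FPKM in S at 12 h, at 30.2 and 32.9 in U at 12 h, at 143 and 58.9 in S at 6 h and at 60.9 and 40.2 in U at 6 h. Because which bases of GCR1 the deposited gene model covers is not known, these values do not check the labels. The labels do not say that the 2 samples of each group were grown apart, so p-values measure the spread between these samples, which may be technical.

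The comparison of 12 h with 6 h within each strain asks how the genes pass through the diauxic shift. PDC1, the main enzyme of glucose growth, fell in both strains, PDC6, the minor copy, rose in both strains, and PDC5 and PDC2 did not pass the test, where 56.1% of genes passed in S and 55.3% in U. In S, PDC1 had 1237 and 861 FPKM at 12 h, against 6942 and 6339 FPKM at 6 h. In U, PDC1 had 256 and 264 FPKM at 12 h, against 6445 and 4794 FPKM at 6 h. In both strains each 12 h library was below each 6 h library. Non-overlapping groups were seen for 79.9% of the 6339 genes tested in S and 81.1% in U. PDC1 was the gene of rank 22 to 43 by FPKM in the 6 h libraries. At 12 h it ranked 199 and 293 in S and 943 and 986 in U.

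On the log2(FPKM + 1) scale PDC1 fell by 2.68 in S (SE 0.24, adjusted p = 0.000372) and by 4.41 in U (SE 0.24, adjusted p = 8.71e-05), in limma with Benjamini-Hochberg adjustment over all 6339 genes. These are 6.42-fold and 21.3-fold lower levels. The same test called 22.9% of genes lower in S and 21.7% lower in U, so a fall as such was common among genes. By size, the change of PDC1 stood at percentile 3.50 of all genes in S and 0.347 in U, counted from the largest fall. A lower FPKM does not tell apart less PDC1 RNA per cell and fewer cells that carry it.

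PDC6 had 12.3 and 12.6 FPKM in S at 12 h, against 1.02 and 0.35 FPKM in S at 6 h. In U it had 11.0 and 10.1 FPKM at 12 h, against 0.40 and 0.63 FPKM at 6 h. All 4 libraries at 12 h were above all 4 at 6 h. Within a strain, 79.9% of genes in S and 81.1% in U had no overlap between the times, in 1 direction or the other. The share of genes for 4 libraries against 4 was not computed. The log2(FPKM + 1) change was 3.02 in S (SE 0.30, adjusted p = 0.000498) and 2.94 in U (SE 0.30, adjusted p = 0.000583) in limma, and 33.2% of genes were called higher in S and 33.5% in U. This scale understates the change of a gene so low at 6 h. The ratio of mean FPKM was 18.2 in S and 20.5 in U, and with a pseudocount of 0.1 the log2 change was 4.14 in both strains. The read depth behind values under 1 FPKM is unknown. PDC6 reached the mean of 1 FPKM needed for the test only through its 12 h libraries, since its 6 h means were 0.685 FPKM in S and 0.515 in U. The filter thus drew on the same difference that the test measures, and the p-values of PDC6 are given as a description.

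PDC5 stayed within a narrow range, between 10.9 and 14.0 FPKM over the 8 libraries. It had 11.2 and 12.2 FPKM in S at 12 h, against 13.3 and 14.0 FPKM in S at 6 h. In U it had 11.4 and 11.1 FPKM at 12 h, against 10.9 and 14.0 FPKM at 6 h. The groups overlapped in U and did not in S, where 79.9% of all genes had no overlap. The log2 changes of -0.21 in S (95% interval -0.64 to 0.22, adjusted p = 0.357) and -0.12 in U (95% interval -0.55 to 0.31, adjusted p = 0.575) did not pass the test in limma. With quantile normalization, which gives every library the same distribution of values, PDC5 was called lower in both, with log2 changes of -0.73 in S (adjusted p = 0.0256) and -0.72 in U (adjusted p = 0.0271). Over the same libraries PDC1 spanned 256 to 6942 FPKM.

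PDC2, the activator, had 44.7 and 39.7 FPKM in S at 12 h, against 36.9 and 36.9 FPKM in S at 6 h. In U it had 44.0 and 40.9 FPKM at 12 h, against 32.1 and 42.6 FPKM at 6 h. The log2 change was 0.19 in S (95% interval -0.23 to 0.60, adjusted p = 0.384) and 0.19 in U (95% interval -0.22 to 0.61, adjusted p = 0.365) in limma. These values lie close to the median of all genes, 0.23 in S and 0.26 in U. With median-of-ratios scaling, which moves the median of all genes to 0.02 in both strains, PDC2 had -0.03 in S and -0.05 in U. The same scaling changed the share of higher genes among the calls to 48.8% in S and 48.5% in U, against 59.2% and 60.7% with the deposited values. PDC1 and PDC6 kept their direction and call with it, with log2 changes of -2.90 and 2.89 in S and -4.66 and 2.77 in U.

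**Figure D2:**
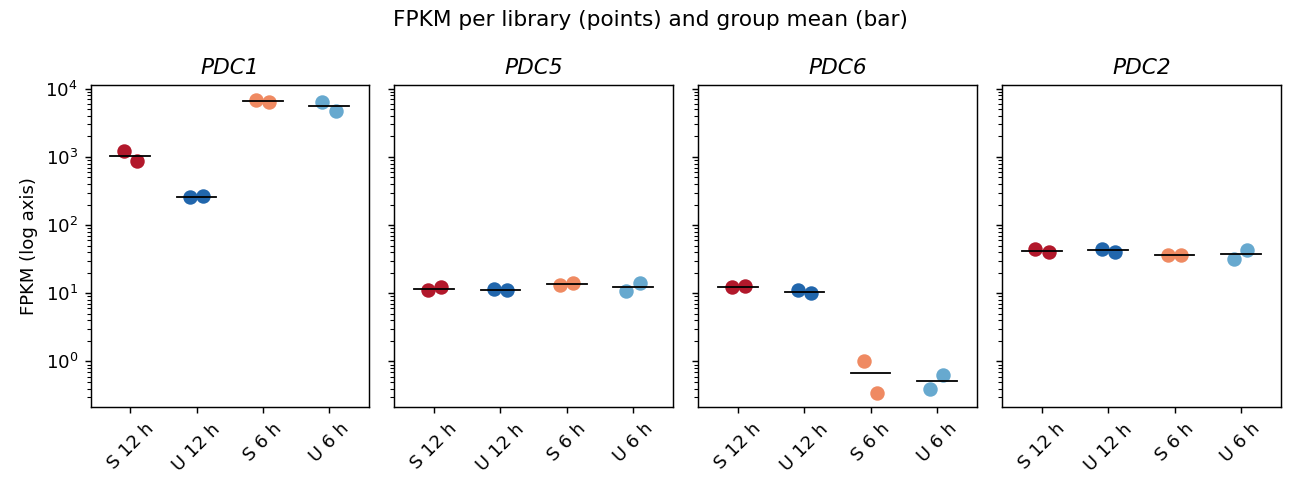
FPKM on a log axis (y) of the 4 genes in each library (points), with the mean of the 2 libraries of a group (black bar), for the groups S 12 h, U 12 h, S 6 h and U 6 h (x). PDC1 was lower and PDC6 higher at 12 h in both strains, while PDC5 stayed between 10.9 and 14.0 FPKM.

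The enzymes' shares of their summed FPKM show what these changes did to the make-up of pyruvate decarboxylase mRNA. The sum was 1260 and 886 FPKM in S at 12 h and 278 and 286 in U at 12 h. It was 6957 and 6353 FPKM in S at 6 h and 6456 and 4808 in U at 6 h. PDC1 made up nearly all of it at both times, 94.96% ± 3.16 at 12 h and 99.8% ± 0.0552 at 6 h (SD, n = 4 libraries each, both strains together). The share of PDC5 was 2.57% ± 1.67 at 12 h and 0.218% ± 0.0533 at 6 h (SD, n = 4 each). That of PDC6 was 2.47% ± 1.49 at 12 h and 0.00987% ± 0.00469 at 6 h (SD, n = 4 each). For each of the 3 genes all 4 shares at 12 h lay on 1 side of all 4 at 6 h. The exact permutation test, two-sided, gave p = 0.0286 for each gene, adjusted over the 3 genes to 0.0286, which is the smallest value that 4 libraries against 4 can give. Without any 1 of the 6 h libraries the adjusted p was 0.0857 for each gene, and without any 1 of the 12 h libraries it was 0.0286. The 3 shares of a library sum to 100%, so the tests are not independent. The mean FPKM of PDC5 was not higher at 12 h in either strain, so its share grew only as the sum shrank. The separation of the shares follows from the FPKM changes given above, so these p-values add no support to them. The 4 libraries of a time also pool 2 strains and are not replicates of 1 group.

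Within the 12 h libraries the shares were also set out by strain. PDC1 made up 98.1% and 97.2% of the sum in S, against 91.9% and 92.6% in U. PDC5 made up 0.887% and 1.38% in S, against 4.11% and 3.90% in U. PDC6 made up 0.972% and 1.43% in S, against 3.95% and 3.55% in U. The strains did not overlap in any of these shares. The difference in share was not tested, and an exact two-sided permutation test of 2 libraries against 2 could not go below p = 0.333. The ratio of PDC5 to PDC6 was 0.913 and 0.967 in S at 12 h and 1.04 and 1.10 in U at 12 h, so the minor copies stood at near equal levels. At 6 h PDC5 was 13.0 and 40.0 times the level of PDC6 in S and 27.4 and 22.3 times in U.

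**Figure D3:**
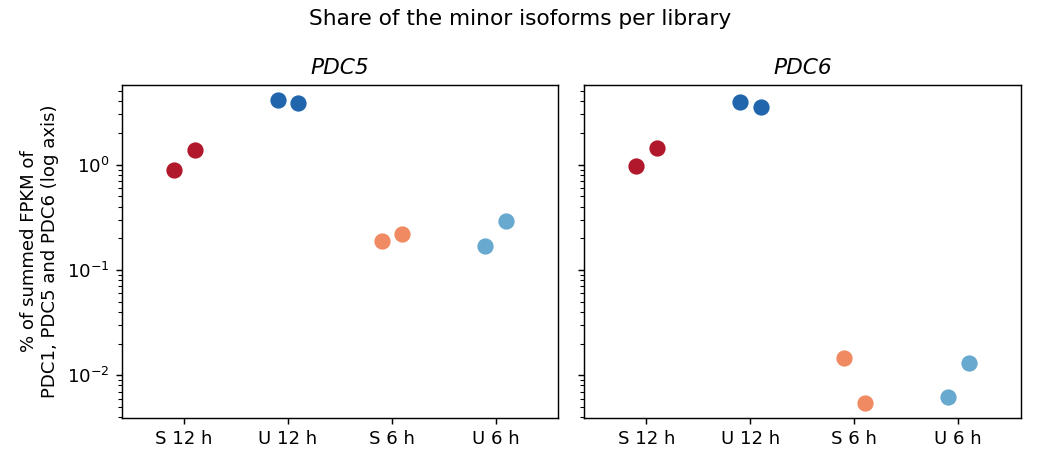
Share of PDC5 and of PDC6 in the summed FPKM of PDC1, PDC5 and PDC6 (y, percent, log axis) in each library (points) of the groups S 12 h, U 12 h, S 6 h and U 6 h (x). At 12 h both shares were larger in the U libraries, 3.55% to 4.11%, than in the S libraries, 0.887% to 1.43%.

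Set against each other at 12 h, the strains show PDC1 after the diauxic shift with either form of Gcr1. PDC1 stood at 1237 and 861 FPKM in S, against 256 and 264 in U. The mean was 1049 ± 266 FPKM in S (SD, n = 2) and 260.2 ± 6.08 FPKM in U (SD, n = 2). Both S libraries were above both U libraries, as was the case in 1 direction or the other for 20.6% of genes. The log2 difference was 1.98 (SE 0.24, 95% interval 1.41 to 2.56), a 3.96-fold higher level in S. It did not pass the test over all genes in limma (adjusted p = 0.0776, unadjusted p = 0.000122), which called 0.126% of genes, 0.11% higher and 0.0158% lower in S. Leaving out single libraries gave differences between 1.72 and 2.24. A fit that blocks on the replicate number separately at 12 h and 6 h called it (adjusted p = 0.0335 in limma), and the labels do not say what that number marks. The difference was not called with a single replicate block or with the 12 h groups fitted alone. By size it stood at percentile 99.6 of all genes, and the median of all genes was -0.04.

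PDC6 was also above U in both S libraries at 12 h, with 12.3 and 12.6 FPKM in S and 11.0 and 10.1 in U, but its log2 difference of 0.22 was within the error of the fit (95% interval -0.50 to 0.94, adjusted p = 1 in limma). PDC5 differed by 0.05 (95% interval -0.38 to 0.48) and PDC2 by -0.01 (95% interval -0.42 to 0.40), each with adjusted p = 1 in limma, and S and U overlapped in both genes. The intervals of PDC6, PDC5 and PDC2 therefore leave out a difference of the size seen in PDC1.

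At 6 h the strains did not differ beyond their spread in any of the 4 genes. PDC1 had 6942 and 6339 FPKM in S and 6445 and 4794 in U, which overlap, with a log2 difference of 0.26 (95% interval -0.32 to 0.83). Without U replicate 1 this difference was 0.47, and without U replicate 2 it was 0.04. PDC5 had 0.13 (95% interval -0.30 to 0.56), PDC6 0.13 (95% interval -0.59 to 0.85) and PDC2 -0.00 (95% interval -0.42 to 0.41), all with adjusted p = 1 in limma, which called 0.0789% of genes. In U, PDC1 was higher in replicate 1 than in replicate 2 by 0.43 on the log2 scale, PDC2 lower by 0.40 and PDC5 lower by 0.33. In S the differences of PDC1, PDC5 and PDC2 between replicates were 0.13, -0.07 and 0.00. The part of the difference between replicates in the comparison of the strains at 6 h was not tested.

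The difference between the time changes tests directly whether the strains passed the diauxic shift differently. For PDC1 it was 1.73 (SE 0.34, 95% interval 0.91 to 2.54), S above U, or a 3.31-fold smaller fall in S. It did not pass over all genes (adjusted p = 0.728, unadjusted p = 0.00184) in limma, which called 0.0789% of genes. For PDC6 it was 0.09 (95% interval -0.93 to 1.10), for PDC5 -0.08 (95% interval -0.69 to 0.53) and for PDC2 -0.01 (95% interval -0.59 to 0.57), each with adjusted p = 1.00. The order of the PDC1 levels was thus S at 6 h and U at 6 h, which overlapped, then S at 12 h and then U at 12 h, which stood apart from each other and from the 6 h groups. For PDC6 the order was S at 12 h, U at 12 h and then the 6 h groups, which overlapped. For PDC2, S at 12 h and U at 12 h overlapped and both stood above S at 6 h, while U at 6 h overlapped all other groups.

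**Figure D4:**
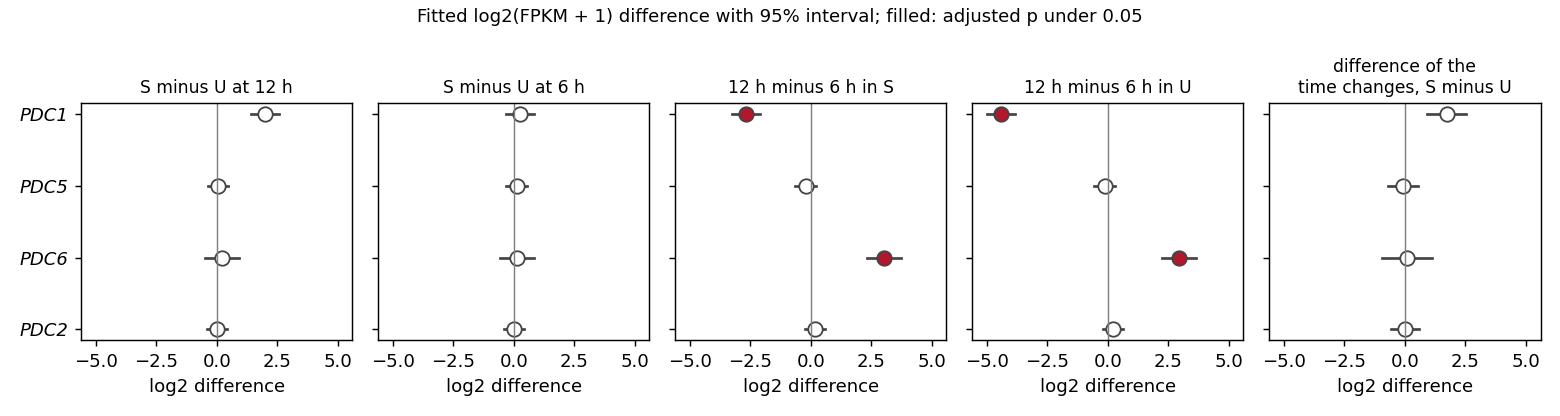
Fitted difference in log2(FPKM + 1) (x) with its 95% interval (bar) for the 4 genes in 5 comparisons (panels); filled points have an adjusted p under 0.05. PDC1 and PDC6 were called in the comparisons of time in both strains, and no gene was called in the comparisons of S with U or in the difference of the time changes.

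Of the 7 genes listed as regulators of the PDC genes, 1 rose and 2 fell at 12 h in each strain. Over all genes 33.2% rose and 22.9% fell in S, and 33.5% rose and 21.7% fell in U. These counts therefore do not set the regulators apart. Their median log2 change was 0.07 in S and 0.02 in U, against 0.23 and 0.26 over all genes. With median-of-ratios scaling the medians of the 7 were -0.15 in S and -0.23 in U. THI2, which acts with PDC2 on thiamine genes, rose by 1.30 in S (adjusted p = 0.00456) and 1.71 in U (adjusted p = 0.00163) in limma. RAP1, whose product recruits Gcr1 to glycolytic promoters, fell by 0.88 in S (adjusted p = 0.0122) and by 0.80 in U (adjusted p = 0.0175), and its call was lost without S 12 h replicate 1, S 12 h replicate 2 or S 6 h replicate 2 in S and without U 12 h replicate 1, U 12 h replicate 2 or U 6 h replicate 2 in U (adjusted p 0.0545 to 0.0927). TYE7, an activator of glycolytic genes, fell by 1.41 in S (adjusted p = 0.00184) and by 1.57 in U (adjusted p = 0.00125). THI3, a sensor of thiamine diphosphate that partners Pdc2, had 0.18 in S and 0.14 in U, and GCR2, a partner of Gcr1, had -0.09 and 0.02. GCR1 and PDC2 did not pass either. Between the strains 0 of the 7 were called at 12 h or at 6 h, where 0.126% and 0.0789% of all genes were.

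The genes around the enzymes are given by the step they serve. Of 17 genes of glycolysis, which makes pyruvate, 7 fell in S and 13 fell in U and 0 rose, with medians of -0.56 in S and -2.27 in U. Of all genes, 22.9% fell and 33.2% rose in S, and 21.7% fell and 33.5% rose in U. At 12 h the test of S against U called 5 of the 17, all higher in S, and the median difference was 1.87. Over all genes that test called 0.126%, and the median difference was -0.04. With the 12 h groups fitted alone it called 0 genes. The difference of the time changes called 0 of the 17, with a median of 1.74. The test of S against U at 6 h also called 0 of the 17. Each of these 2 tests called 0.0789% of all genes. CDC19, the main pyruvate kinase, fell by 2.17 in S and fell by 5.30 in U. Its 12 h libraries had 416 and 378 FPKM (S) against 25.9 and 41.2 FPKM (U). ADH1, the alcohol dehydrogenase that makes ethanol, fell by 1.49 in S (adjusted p = 0.00777) and by 3.81 in U (adjusted p = 0.000275) in limma. Without S 12 h replicate 2 its adjusted p in S was 0.0527. It had 3036 and 2499 FPKM in S at 12 h and 354 and 663 FPKM in U at 12 h. The log2 difference between the strains at 12 h was 3.56 (adjusted p = 0.00877) for CDC19 and 2.50 (adjusted p = 0.0807) for ADH1, in the direction of that of PDC1. The call of CDC19 was lost without U 6 h replicate 1, U 6 h replicate 2, S 12 h replicate 1 or S 12 h replicate 2, with adjusted p between 0.0521 and 0.127, and with the 12 h groups fitted alone (adjusted p = 0.200). That of ADH1 passed without U 12 h replicate 2 (2.96, adjusted p = 0.0147).

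Of the 13 genes of enzymes that use acetaldehyde or acetate, 7 rose and 3 fell in S and 8 rose and 3 fell in U, with median log2 changes of 1.11 in S and 1.06 in U. Over all genes 33.2% rose and 22.9% fell in S, and 33.5% rose and 21.7% fell in U, with medians of 0.23 and 0.26, so the share of falls in the list was near that of all genes. ADH2, the alcohol dehydrogenase that consumes ethanol, rose by 4.400 in S (SE 1.30, adjusted p = 0.0283) and 4.99 in U (SE 1.30, adjusted p = 0.0182). It lost its call without any 1 of S 12 h replicate 2 and both S 6 h libraries in S (adjusted p 0.0618 to 0.130), and without any 1 of U 12 h replicate 2 and both U 6 h libraries in U (adjusted p 0.0546 to 0.0985). ACS1, an acetyl-CoA synthetase, rose by 5.57 in S and 5.92 in U, and ALD4, a mitochondrial aldehyde dehydrogenase, by 3.78 and 3.87. ALD5, another mitochondrial aldehyde dehydrogenase, fell by 3.26 in S and 3.14 in U, and ADH1 and ADH4 were the other called falls. At 12 h, 0 of the 13 were called between the strains, where 0.126% of all genes were.

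Pyruvate that is not decarboxylated can enter the mitochondrion or be carboxylated. Of the 14 genes of these fates, 9 rose and 1 fell in S and 8 rose and 1 fell in U, with medians of 0.79 and 0.86. Over all genes 33.2% rose and 22.9% fell in S, and 33.5% rose and 21.7% fell in U, with medians of 0.23 and 0.26. PYC1, a pyruvate carboxylase, rose by 5.93 in S and 5.97 in U. Of the subunits of the mitochondrial pyruvate carrier, MPC3, known from respiratory growth, rose by 6.06 in S and 6.61 in U, while MPC2, known from fermentative growth, fell by 1.24 in S and fell by 1.199 in U. In the pyruvate dehydrogenase complex, LPD1 rose by 2.03 in S and 2.01 in U, and PDA1 by 0.87 and 1.01. PDB1, its partner subunit, rose by 0.71 in S (adjusted p = 0.0161) and 0.72 in U (adjusted p = 0.0154) in limma. Its call was lost without S 12 h replicate 1, S 12 h replicate 2 or S 6 h replicate 2 in S (adjusted p 0.0628 to 0.0759) and without U 12 h replicate 1, U 12 h replicate 2 or U 6 h replicate 2 in U (adjusted p 0.0572 to 0.0872).

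**Figure D5:**
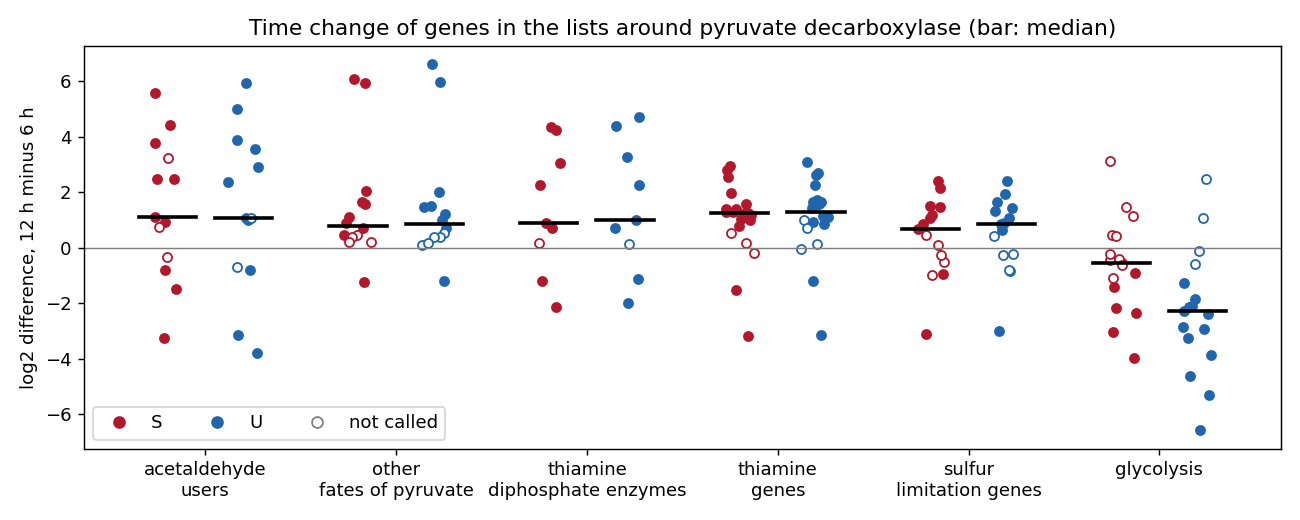
Log2(FPKM + 1) difference of 12 h minus 6 h (y) of each tested gene of 6 lists (x), with S to the left of U in each list, filled points for called genes, open points for genes not called and a black bar for the median. The medians of glycolysis were -0.56 in S and -2.27 in U, while those of the thiamine genes were 1.24 and 1.28.

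Other enzymes use the same cofactor. Of 9 genes listed for it, 6 rose and 2 fell in each strain. Over all genes 33.2% rose and 22.9% fell in S, and 33.5% rose and 21.7% fell in U. The share of falls in the list was thus near that of all genes. Medians were 0.87 in S and 1.01 in U, against 0.23 and 0.26 over all genes. The list includes THI3, the sensor named above, which was not called. KGD1, of the 2-oxoglutarate dehydrogenase complex, rose by 4.34 in S and 4.38 in U. TKL2, the minor transketolase, rose by 4.22 and 4.70, while TKL1, the main one, fell by 2.16 and 1.99. ILV2, acetolactate synthase, fell by 1.19 in S and 1.12 in U. ARO10, which decarboxylates phenylpyruvate, rose by 3.06 in S (SE 0.96, adjusted p = 0.0345) and 3.28 in U (SE 0.96, adjusted p = 0.0271) in limma. Its call was lost without S 12 h replicate 1, S 12 h replicate 2 or S 6 h replicate 2 in S (adjusted p 0.0514 to 0.169), and without U 12 h replicate 2 or U 6 h replicate 2 in U (adjusted p 0.131 to 0.138). The opposite changes of TKL1 and TKL2 and of PDC1 and PDC6 are both changes of a main and a minor copy, given here side by side without a test of likeness.

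Pdc2 also acts on genes of thiamine synthesis and uptake. Of 21 listed, 20 reached a mean of 1 FPKM and were tested. 15 rose and 2 fell in S, and 14 rose and 2 fell in U. Of all genes, 33.2% rose and 22.9% fell in S, and 33.5% rose and 21.7% fell in U. Medians of the list were 1.24 in S and 1.28 in U, against 0.23 and 0.26 over all genes. THI7, a thiamine transporter, rose by 1.57 in S and 1.64 in U, and SNZ3 by 2.95 and 3.08. THI80, which makes thiamine diphosphate, fell by 1.51 in S and 1.22 in U, and PHO3, a phosphatase that frees thiamine from its phosphates, fell by 3.18 and 3.14. SNZ2 and SNZ3, SNO2 and SNO3, and THI5, THI11, THI12 and THI13 are near-identical copies, so the split of reads within each set is uncertain. With quantile normalization 11 rose and 2 fell in each strain. Of all 6339 genes, that setting called 3530 in S, 1674 of them higher, and 3511 in U, 1655 of them higher. Between the strains 0 of the 20 were called at 12 h, with a median of -0.09, where 0.126% of all genes were called.

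PDC6 is known from sulfur limitation, so genes of sulfur uptake and assimilation were set beside it. Of 15, 8 rose and 2 fell in S and 9 rose and 1 fell in U, with medians of 0.67 and 0.86. Of all genes 56.1% were called in S and 55.3% in U. Higher were 33.2% of all genes in S and 33.5% in U, and lower were 22.9% and 21.7%. The medians of all genes were 0.23 and 0.26. STR3, cystathionine beta-lyase, rose by 2.15 in S and 2.40 in U, and SUL2, a sulfate permease, by 1.501 and 1.44. CYS3, cystathionine gamma-lyase, fell by 3.13 in S and fell by 2.999 in U. With quantile normalization 6 rose and 5 fell in S and 5 rose and 5 fell in U. The balance of this list thus moved with the scaling, as did that of all genes. Among all calls, higher genes made up 47.4% in S and 47.1% in U with quantile normalization, against 59.2% and 60.7% with the deposited values.

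The genes whose log2(FPKM + 1) ran most like each member over the 8 libraries were found by Pearson's r among 5820 rows whose mean reached 10 FPKM (5821 for PDC6). The libraries share 2 times and 2 strains, so r largely reflects the difference between the times where there is one. For PDC1 they were ENO2 (r = 0.996), TDH2 (0.989), YCR050C (0.984), PFK2 (0.979) and GPD2 (0.978). For PDC6 they were TAG1, MHR1, RRT6, YJU3 and LAM6, all with r between 0.997 and 0.998. For PDC5 they were SNU56 (r = 0.974), NSI1 (0.950), CLG1 (0.943), EAF5 (0.926) and VPS9 (0.893). For PDC2 they were ELM1 (r = 0.959), CTK1 (0.955), PLC1 (0.951), GLN3 (0.926) and ARG81 (0.926). The 4 sets of 5 held 0 genes in common.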

How the data were processed

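Each library's expression was deposited as FPKM computed by the authors, per the file headers. Per the submitters' processing notes the tools were TopHat2 2.1.1, Cufflinks, FastQC 0.10.1 and bcl2fastq 1.8.2, and the build was sacCer3. The Cufflinks version, all settings and the annotation: not given in the sources used here. FPKM summed to between 1504396 and 1548312 in a library. Low values showed no steps of whole reads, so depth is unknown.

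A linear model of log2(FPKM + 1) over 4 groups, which shared 1 estimate of the spread, was fitted in limma 3.58.1 (R 4.3.3) with moderated variances that follow the mean level. It took the 6339 rows whose mean reached 1 FPKM, and left 4 residual degrees of freedom beside 2.33 from the prior. The two-sided p-values were adjusted over all these rows by Benjamini-Hochberg, and genes with adjusted p under 0.05 were called. The fit was tested on simulated data. Named genes are the 4 members, genes of the lists that describe each list's calls, and the 5 most alike per member. The members and lists were chosen with earlier results of these data known. Sequences are from R64, the assembly of sacCer3. Alternatives were another pseudocount, other filters and scalings, replicate blocks, variances without the trend, fits to 2 groups and libraries left out. Tables were made with Python 3.11.15 and pandas 2.3.3.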

Additional observations from a re-analysis of the deposited data

How the results depend on the processing

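The falls of PDC1 and the rises of PDC6 at 12 h kept their direction and call in both strains under every alternative that gave a value; PDC6 had none under the filter of a mean of 10 FPKM. Without 1 library, PDC1 changed by -2.94 to -2.42 in S and -4.63 to -4.20 in U, and PDC6 by 2.73 to 3.32 in S and 2.83 to 3.05 in U.

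Between the strains at 12 h, PDC1 (1.98) was called with a replicate block within each time (adjusted p = 0.0335), not with a single replicate block (0.0754) or with the 12 h groups fitted on their own (0.308), and without 1 library it ran from 1.72 to 2.24 (0.173 to 0.440). Same-numbered libraries of S and U deviated together at 6 h (correlation 0.64 over 6339 genes) and at 12 h (0.38), with 0.0065 to 0.085 across times. The labels do not say what a number marks, so whether the numbers pair the samples is not established.

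Genes called between the strains at 12 h numbered 8, against 13 with the replicate block within each time, 2 with the single replicate block, 2 without both 6 h libraries of replicate 1 (an alternative chosen after seeing the data), 0 with the 12 h groups fitted alone (103 at unadjusted p under 0.05 in limma) and 1 to 15 without 1 library. At 6 h 5 became 0 with rows holding a 0 left out (38 unadjusted), and 5 to 7 without 1 library. For the difference of the time changes 5 became 0 (43 unadjusted), and 2 to 13. Calls over time ran from 2317 to 3665 in S and 2323 to 3754 in U without 1 library.

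PDC5 was called lower at 12 h with quantile normalization (-0.73 in S, -0.72 in U). The cause was not tested. ARO10 in S had an adjusted p of 0.0506 with the single replicate block. Small differences of PDC5, PDC6 and PDC2 that were not called changed sign. Without both 6 h libraries of replicate 1, PDC5 differed between the strains by -0.0019 at 6 h and by 0.048 in the time changes, PDC6 by -0.27 at 6 h, and PDC2 by -0.0058 over time in U and by 0.19 in the time changes. With quantile normalization PDC2 had 0.032 between the strains at 12 h, 0.0054 at 6 h, -0.083 over time in S, -0.11 in U and 0.026 in the time changes. With median-of-ratios scaling it had 0.025 at 12 h, -0.025 over time in S, -0.050 in U and 0.025 in the time changes. Without 1 library, PDC5 ran from -0.013 to 0.10 between the strains at 12 h, -0.038 to 0.29 at 6 h, -0.29 to 0.040 over time in U and -0.25 to 0.084 in the time changes. PDC6 ran from -0.16 to 0.42 at 6 h and -0.20 to 0.38 in the time changes. PDC2 ran from -0.095 to 0.072 at 12 h, -0.20 to 0.20 at 6 h, -0.0058 to 0.39 over time in U and -0.21 to 0.19 in the time changes. The change in share ran from -5.88 to -3.81 percentage points for PDC1, 1.84 to 2.91 for PDC5 and 1.97 to 2.96 for PDC6. With 2 libraries a group and unknown depth, values of PDC6 at 6 h are the least precise.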
